A study of Mus musculus with 60 samples.

Results

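Potassium channel genes were described across genotype and drug in the prefrontal cortex of young mice. Genes were chosen by symbol alone, from the families of pore-forming subunits (Kcna, Kcnb, Kcnc, Kcnd, Kcnf, Kcng, Kcnh, Kcnj, Kcnk, Kcnma, Kcnn, Kcnq, Kcns, Kcnt and Kcnv) and of accessory subunits (Kcnab, Kcnip and Kcnmb). This gave 78 genes of the 18088 in the table, and all 78 passed the filter on low values that left 17807 genes for testing. A further 8 annotated genes with such symbols (Kcnk16, Kcnk7, Kcna7, Kcnk18, Kcnj1, Kcna10, Kcnv2 and Kcnmb3) were not analysed here.

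RNA was sequenced from 60 C57BL/6J mice, 1 library each, aged 25 days. Mice heterozygous for the N2373K allele of Chd8 (Chd8+/N2373K, here Het) were set against wild-type mice (WT), and each genotype received fluoxetine, lithium or vehicle. Chd8 encodes a chromatin remodeler, fluoxetine blocks serotonin reuptake and lithium is a mood stabilizer. Pups took up the drug in their mothers' milk from postnatal day 3 to 24, and each of the 12 combinations of genotype, treatment and sex had 5 libraries. The vehicle pups were likewise exposed through milk, and the dose each pup took up is not given in the sources used here. Litters are not given either, so pups of 1 group may share a mother. Pups of both genotypes and both sexes on the same treatment may also share a mother. The tests speak only of the variation among these libraries.

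Potassium channels let potassium leave a neuron and so set its resting potential, shorten its action potentials and limit repetitive firing. Voltage-gated channels open with depolarization: the Shaker group (Kcna) along axons, the Shab group (Kcnb) as delayed rectifiers, the Shaw group (Kcnc) in fast-spiking cells, the Shal group (Kcnd) as A-type currents and the M-current group (Kcnq) near threshold. Silent modifiers (Kcnf, Kcng, Kcns, Kcnv) carry no current alone and join Shab subunits, Kcnab and Kcnip proteins bind Shaker and Shal channels from the inside, inward rectifiers (Kcnj) and two-pore-domain channels (Kcnk) hold the resting potential, and Kcnma1, Kcnn and Kcnt channels open with calcium or sodium. In astrocytes, Kcnj10 with Kcnj16 takes up the potassium that active neurons release.

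Levels spanned 3 orders of magnitude. The scale for comparing genes was the mean normalized count per kb of exon over all 60 libraries. The inward rectifier Kcnj4 was highest at 1704, followed by the Shaker beta subunit Kcnab2 at 1613, the silent modifier Kcnf1 at 1309, the two-pore-domain channel Kcnk1 at 1208, the G-protein-gated rectifier Kcnj9 at 1179 and Kcnip3 at 1079.7. Among voltage-gated pores Kcnh3 stood at 827 and Kcna2 at 748. The highest members of other families were Kcnv1 at 819, the calcium-activated pore Kcnma1 at 637, Kcnc4 at 617, the neuronal Kcnma1 partner Kcnmb4 at 555, Kcnd2 at 554, the sodium-activated Kcnt1 at 441, Kcng1 at 346, Kcns2 at 183 and Kcnn2 at 136, all per kb. At the low end stood Kcnj15 at 1.11, Kcnn4 at 1.47, Kcnj5 at 2.07 and Kcnk15 at 3.85, the 4 members with libraries at 0. The median per class was 381.8 for the 28 voltage-gated pores, 475 for the 10 accessory subunits, 139.7 for the 13 inward rectifiers, 136 for the 7 calcium- or sodium-activated pores, 111 for the 9 silent modifiers and 57.4 for the 11 two-pore-domain genes.

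**Figure D1:**
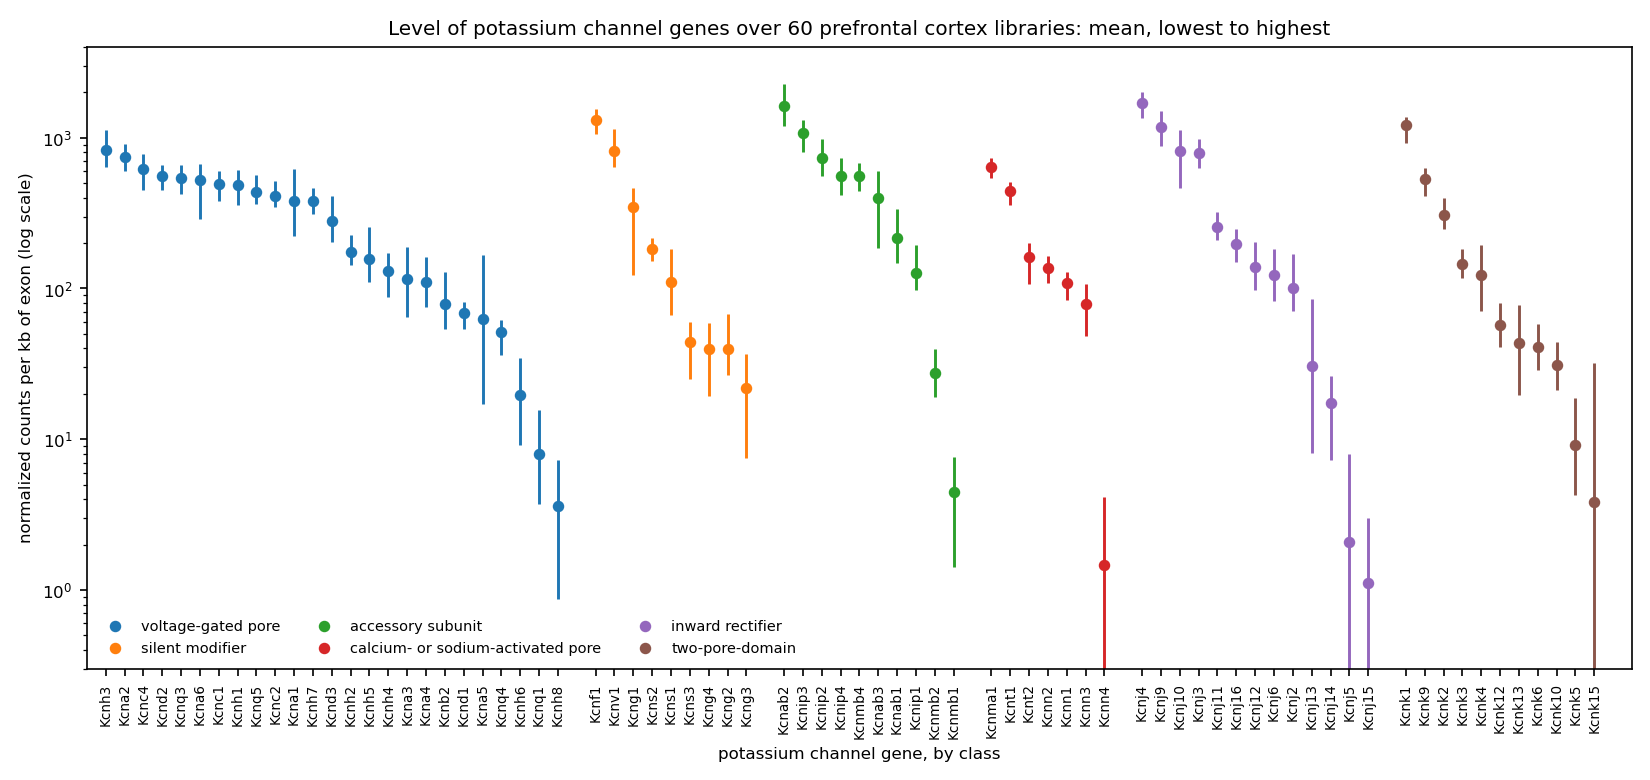
Level of potassium channel genes in normalized counts per kb of exon (log axis), by class. Points are means over 60 libraries and bars run from the lowest to the highest library; bars that reach the bottom edge include a library at 0, and Kcnj4 and Kcnab2 stand highest while Kcnj15 stands lowest.

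The coefficient of variation over the 60 libraries was low for Kcnt1 (6.97%), the G-protein-gated Kcnj3 (7.22%) and Kcnma1 (7.23%). It was highest for Kcnk15 (159%), Kcnj5 (83.0%), Kcnn4 (66.2%) and Kcnj15 (63.3%), all members with few reads. Among genes above 100 normalized counts on average, the Shaker gene Kcna5 varied most, at 42.4%.

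Library depth ran from 24.05 to 31.65 M reads (median 28.32 M), and the 78 genes took 0.543% to 0.627% of it. Chd8 stood at 2473 to 2826 normalized counts in the 10 Het vehicle libraries and at 2977 to 3276 in the 10 WT vehicle libraries, with no overlap, a log2 difference of −0.23 ± 0.03 (limma, adjusted p = 6.67e-06). It stood at 2421 to 3072 in Het and 2951 to 3285 in WT fluoxetine libraries, and at 2520.4 to 2830.2 in Het and 2989 to 3219.9 in WT lithium libraries. The library labelled Het fluoxetine male replicate 5, at 3072, lay inside the WT range, and the other 9 Het fluoxetine libraries were at 2421 to 2812, below all WT libraries. Fluoxetine results in Het mice are therefore also given without it. The forebrain excitatory marker Slc17a7 was at 34169 to 48604 in Het vehicle and 39951 to 47979 in WT vehicle libraries, and the inhibitory marker Gad1 at 6919.7 to 19404 in Het vehicle and 6852 to 12918 in WT vehicle libraries, and no gene of the marker lists was at 0 throughout a group. The 16 libraries with the highest score for 12 olfactory bulb markers were unevenly spread: 5 of 10 Het fluoxetine, 1 of 10 Het lithium, 5 of 10 Het vehicle, 0 of 10 WT fluoxetine, 2 of 10 WT lithium and 3 of 10 WT vehicle libraries. Results are given with and without them where that ended a call. Striatum and oligodendrocyte marker scores were also uneven. Striatum scores were 2.78 in Het fluoxetine female replicate 5, 2.46 in WT fluoxetine male replicate 3 and 2.41 in Het lithium female replicate 4. They were 1.92 in WT lithium female replicate 4, 1.69 in Het vehicle female replicate 2 and 1.66 in WT vehicle male replicate 1. The library labelled Het fluoxetine male replicate 5 scored 1.56 for striatum and 1.64 for olfactory bulb markers, and was among the 16. Oligodendrocyte scores were −1.57 in Het vehicle female replicate 3, −1.52 in Het lithium female replicate 2 and −1.39 in Het fluoxetine male replicate 1. The choroid plexus score was 4.12 in WT vehicle male replicate 2. In bulk tissue, fewer cells of a type and less RNA per cell cannot be told apart.

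Het mice were set against WT mice under vehicle, the comparison of the Chd8 allele without a drug. No potassium channel gene passed the test (limma, 0 of 78 called, against 0.0562% of all genes tested; edgeR also 0), and 4 had an unadjusted p under 0.05. The 3 with the smallest p were the inward rectifier Kcnj12 at 0.22 ± 0.08 (log2 fold change ± SE, adjusted p = 0.521), the M-current gene Kcnq3 at −0.14 ± 0.05 (0.524) and the two-pore-domain gene Kcnk12 at 0.25 ± 0.10 (0.558). Kcnj12 ranged over 338 to 463 (median 384) normalized counts in Het vehicle libraries and over 282 to 410 (median 331) in WT vehicle libraries, so the groups overlapped. The median log2 difference of the 78 genes was −0.01, beside −0.00 for all genes. A missed threshold does not show that levels were equal: for the 65 members averaging at least 100 normalized counts, the 95% intervals of the Het minus WT difference lay within −0.57 to 0.53, with a median width of 0.28. Of the oligodendrocyte markers, 0 of 12 were called and 9 had an unadjusted p under 0.05, with a median of −0.56, and their summed level was 35030.1 to 165971 in Het vehicle and 91865 to 230935 in WT vehicle libraries.

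The strong inward rectifier Kcnj2, which stabilizes the resting potential, rose with fluoxetine in both genotypes (chr11:111066164-111076821, plus strand, GRCm38). Among Het males it stood at 759, 707, 579.8, 778 and 671 normalized counts with fluoxetine, against 458, 493, 433, 441 and 517 with vehicle. Among Het females it stood at 548, 519.8, 587, 924 and 701 with fluoxetine, against 489, 572, 509, 493 and 494 with vehicle. All 5 Het males given fluoxetine lay above all 5 on vehicle, while in Het females the groups overlapped through the fluoxetine libraries at 548 and 519.8 and the vehicle library at 572. Among WT males the values were 763, 710.2, 652, 703 and 818 with fluoxetine, against 508, 509.6, 461, 492 and 550.3 with vehicle. Among WT females they were 669, 675, 558, 689 and 579.8 with fluoxetine, against 471, 503, 466, 478 and 454 with vehicle. The WT groups did not overlap in either sex. Over both sexes the log2 fold change was 0.45 ± 0.08 in Het mice (limma, adjusted p = 2.18e-05) and 0.47 ± 0.08 in WT mice (adjusted p = 4.20e-05), with 10 of 10 fluoxetine libraries above the vehicle mean in each genotype (here and in later such counts, the mean of log2 values over both sexes). By sex it was 0.57 in Het males, 0.33 in Het females, 0.53 in WT males and 0.41 in WT females. The difference between the genotypes' responses was −0.02 (95% interval −0.25 to 0.20). Kcnj2 kept its call in both genotypes under the 9 alternative settings and without any 1 of the 20 libraries. Under lithium Kcnj2 was not called, at −0.10 ± 0.08 in Het and −0.05 ± 0.08 in WT mice. The activity-dependent immediate early genes were lower with fluoxetine in both genotypes, 12 of 14 in Het (median −0.75) and 12 of 14 in WT mice (median −0.85). Of all genes tested, 16% were called lower in Het and 5.06% in WT mice. The part of the immediate early genes in the result was not tested.

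**Figure D2:**
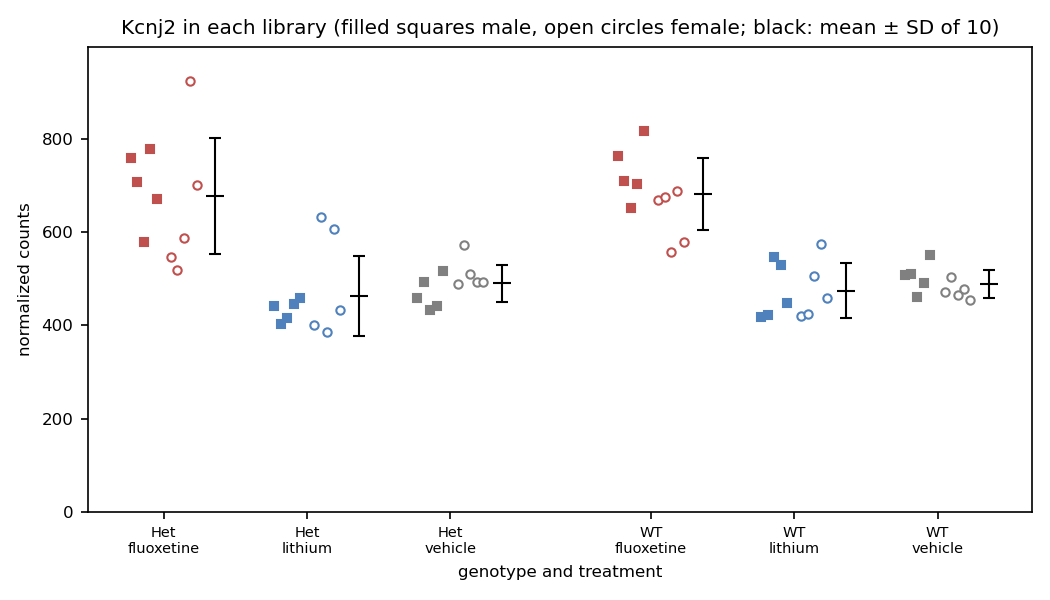
Kcnj2 in normalized counts (y axis) in each of the 60 libraries by genotype and treatment, males as filled squares and females as open circles, with mean ± SD of 10 libraries in black. Fluoxetine libraries averaged 677 ± 124 in Het and 682 ± 77.0 in WT mice, above vehicle libraries at 490.1 ± 40.2 in Het and 489 ± 29.4 in WT mice.

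In WT mice other potassium channel genes were also called under fluoxetine, and those calls depended on the fit. Of 78 genes, 1 was higher (Kcnj2) and 2 were lower, 3.85% of the members beside 8.2% of all genes tested (3.14% higher and 5.06% lower). When the 4 groups compared were fitted alone, 7 members were called, 4 higher and 3 lower. In single sexes Kcnj2 was the 1 member called, in males beside 1.34% and in females beside 2.5% of all genes tested, and the female call was lost without WT fluoxetine female replicate 1, 2 or 4 or WT vehicle female replicate 3, 4 or 5. The silent modifier Kcnf1 was lower at −0.16 ± 0.05 (adjusted p = 0.0314) and the Shaker gene Kcna3 at −0.35 ± 0.11 (0.0473). Kcnf1 ranged over 5082 to 6377 (median 5672) normalized counts with fluoxetine and 5225 to 6922 (median 6449) with vehicle, and Kcna3 over 122 to 229.8 (median 203) with fluoxetine and 186 to 299.8 (median 245) with vehicle. Both overlapped between the groups. Both calls were lost without the 16 olfactory-rich libraries (adjusted p = 0.150 for Kcnf1 and 0.201 for Kcna3) and with olfactory bulb, striatum and oligodendrocyte scores as terms (0.191 for Kcnf1 and 0.183 for Kcna3). The Kcna3 call was also lost under quantile normalization (0.0653). Kcnf1 was lost on leaving out any 1 of 9 libraries and Kcna3 any 1 of 13, and only Kcnj2 was called without WT fluoxetine female replicate 2, WT fluoxetine male replicate 4, WT vehicle female replicate 4 or 5, or WT vehicle male replicate 3. The 12 olfactory bulb markers had a median of −0.81 with 0 called, and they summed to 13738 to 20221 normalized counts in fluoxetine and 14802 to 38175 in vehicle libraries.

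In Het mice fluoxetine raised 15 and lowered 8 of the 78 genes. That is 29.5% of the members beside 32.9% of all genes tested (16.9% higher and 16% lower), so the share was near the background, and the members' median log2 fold change was 0.02, beside 0.01 for all genes. After rescaling every library to the same total the split was 11 higher and 11 lower. Without the library labelled Het fluoxetine male replicate 5, 14 members rose and 7 fell, and of the named genes Kcna5, Kcnh4 and Kcnc1 lost their calls (adjusted p of 0.0559 for Kcna5, 0.0632 for Kcnh4 and 0.0757 for Kcnc1). Kcnab2 was then at 0.42, Kcnj2 at 0.46, Kcnj4 at 0.20, Kcng1 at −0.56 and Kcnj10 at −0.50 (log2 fold change, limma), all still called. By class, 6 rose and 2 fell of 28 voltage-gated pores, 2 rose and 1 fell of 9 silent modifiers, 3 rose and 1 fell of 10 accessory subunits, 1 rose of 7 calcium- or sodium-activated pores, 3 rose and 2 fell of 13 inward rectifiers, and 2 fell of 11 two-pore-domain genes. A fit of only the 4 groups compared called 14 members, and the calls of Kcnd3, Kcnq3, Kcna5, Kcnh4, Kcnk9 and Kcnc1 were among those it lost. Leaving out the 16 olfactory-rich libraries ended the calls of Kcnip3, Kcng2, Kcnq5, Kcns2, Kcnj16, Kcnh4, Kcnk9 and Kcnc1. Of the 20 called genes named here, 16 kept their call without any 1 of the 20 libraries and 9 also under the 9 alternative settings: Kcnab2, Kcnj2, Kcnj4, Kcna2, Kcnj6, Kcng1, Kcnj10, Kcnmb1 and Kcnk10.

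Inward rectifiers moved in both directions in fluoxetine-treated Het mice. Kcnj10, the main potassium channel of astrocytes (chr1:172341210-172374085, plus strand), fell. It stood at 3982, 5031, 2513, 3022 and 3333 normalized counts in fluoxetine males, against 5676, 5883, 4911, 5844 and 4483 in vehicle males. In females it stood at 4550.2, 3274, 3303, 2947 and 3424 with fluoxetine, against 3734, 4437, 4798, 4839 and 5080.4 with vehicle. The groups overlapped in both sexes, with 9 of 10 fluoxetine libraries below the vehicle mean, and the log2 fold change was −0.51 ± 0.10 (adjusted p = 9.89e-05). Its partner subunit Kcnj16 fell by 0.24 on the log2 scale (SE 0.07, adjusted p = 0.00532), ranging over 589 to 796 (median 699) with fluoxetine and 687 to 947 (median 831) with vehicle. All 10 fluoxetine libraries lay below the vehicle mean of Kcnj16, and the groups overlapped. Kcnj4, a relative of Kcnj2 found in forebrain neurons, rose by 0.20 ± 0.04 (adjusted p = 9.17e-05), with 10 of 10 fluoxetine libraries above the vehicle mean. The G-protein-gated subunit Kcnj6, which couples inhibitory receptors to potassium efflux, rose by 0.28 ± 0.08 (0.00723). Among the 9 astrocyte markers 1 rose (Gjb6, 0.27) and 3 fell (Aqp4, −0.55, Gfap, −0.48, and S1pr1, −0.28), the list summed to 132710 to 181345 in fluoxetine and 134987 to 199902 in vehicle libraries, and their part in the fall of Kcnj10 and Kcnj16 was not tested.

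Several voltage-gated pores and their partners rose. Kcnab2, which binds Shaker channels and takes part in their placement on axons (chr4:152390742-152477871, minus strand), stood at 9234, 9627, 12268, 12760.1 and 10196 normalized counts in fluoxetine males, against 6626, 7809.9, 8548, 7449 and 8761 in vehicle males. In females it stood at 8232, 10072, 11867, 12177 and 10509 with fluoxetine, against 8020.5, 8689, 8088, 7891 and 8307 with vehicle. The male groups did not overlap, the female groups did, and 2.24% of its exon bases lie under another gene on the same strand. The log2 fold change was 0.41 ± 0.07 (adjusted p = 9.79e-06; 0.46 in males and 0.35 in females). Of the Shaker pores Kcnab2 can join, Kcna2 rose by 0.18 ± 0.05 (0.00713) and the scarcer Kcna5 by 0.68 ± 0.23 (0.0170). The other Shaker genes, named after their values were seen, went both ways. Kcna1 was called higher, at 0.34, while Kcna6 at −0.18, Kcna4 at −0.11 and Kcna3 at −0.07 were not called. Kcna5 ranged over 95.6 to 480 (median 179.8) with fluoxetine and 49.4 to 274 (median 124) with vehicle, and its call was lost without Het fluoxetine female replicate 5, the library labelled Het fluoxetine male replicate 5 or Het vehicle female replicate 3 (adjusted p up to 0.0612). The A-type pore Kcnd3 rose by 0.27 ± 0.07 (0.00271) and its calcium-binding partner Kcnip3 by 0.18 ± 0.05 (0.00608). The M-current pores Kcnq5 and Kcnq3 rose by 0.18 ± 0.06 (0.00998) and 0.16 ± 0.05 (0.0144). Among the falls were Kcnh4 at −0.27 ± 0.09 (0.0242) and the fast-spiking channel Kcnc1 at −0.12 ± 0.05 (0.0465), and the Kcnc1 call was lost on leaving out any 1 of 15 libraries. The Kcnh4 call was lost without Het fluoxetine female replicate 2, Het fluoxetine male replicate 2, the library labelled Het fluoxetine male replicate 5, Het vehicle female replicate 3 or Het vehicle male replicate 5.

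Silent modifiers split. Kcng1, which joins Shab channels (chr2:168260117-168281736, minus strand), fell. It stood at 1449, 1367, 554, 1223 and 1058 normalized counts in fluoxetine males, against 1317, 1975, 1836, 1511 and 1608 in vehicle males. In females it stood at 1370.4, 1157, 1066, 1047 and 1103 with fluoxetine, against 1349.8, 1681, 1642, 1711 and 1844 with vehicle. Fluoxetine male replicate 3 was lowest at 554 and the groups overlapped slightly in both sexes, with a log2 fold change of −0.56 ± 0.11 (adjusted p = 5.30e-05) that stayed between −0.62 and −0.44 on leaving out any 1 library. Kcng2 rose by 0.39 ± 0.11 (0.00670), at 109 to 202 (median 145) with fluoxetine, against 83.7 to 166 (median 113) with vehicle. Kcns2 rose by 0.15 ± 0.05 (0.0109).

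Kcnmb1, the calcium-activated channel partner known from vascular smooth muscle, fell by 0.82 on the log2 scale (SE 0.21, adjusted p = 0.00202) at a low level, 7.34 to 17.4 (median 12.4) with fluoxetine, against 15.5 to 27.9 (median 22.7) with vehicle. All 10 fluoxetine libraries lay below the vehicle mean. Of the two-pore-domain genes, the stretch- and heat-sensitive Kcnk10 fell by 0.28 (SE 0.08, 0.00474) and the acid-sensitive Kcnk9 by 0.14 (SE 0.05, 0.0245), the Kcnk9 call being lost without Het fluoxetine female replicate 2, Het vehicle female replicate 3 or Het vehicle male replicate 5. The remaining calls, named after their values were seen, were rises of Kcnn2 (0.15, 0.0184), Kcna1 (0.34, 0.0267) and Kcnip4 (0.17, 0.0414). Vascular and meningeal markers moved with these falls: 6 of 8 endothelial markers were lower (median −0.29) and 7 of 8 leptomeningeal markers (median −0.55). Of all genes tested, 16% were called lower. The endothelial list summed to 5907 to 7897 in fluoxetine and 6601 to 9916 in vehicle libraries and the leptomeningeal list to 4625 to 9405 in fluoxetine and 5039 to 9647 in vehicle libraries. Of 8 microglial markers 5 were lower (median −0.23). Their part in the channel results was not tested.

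**Figure D3:**
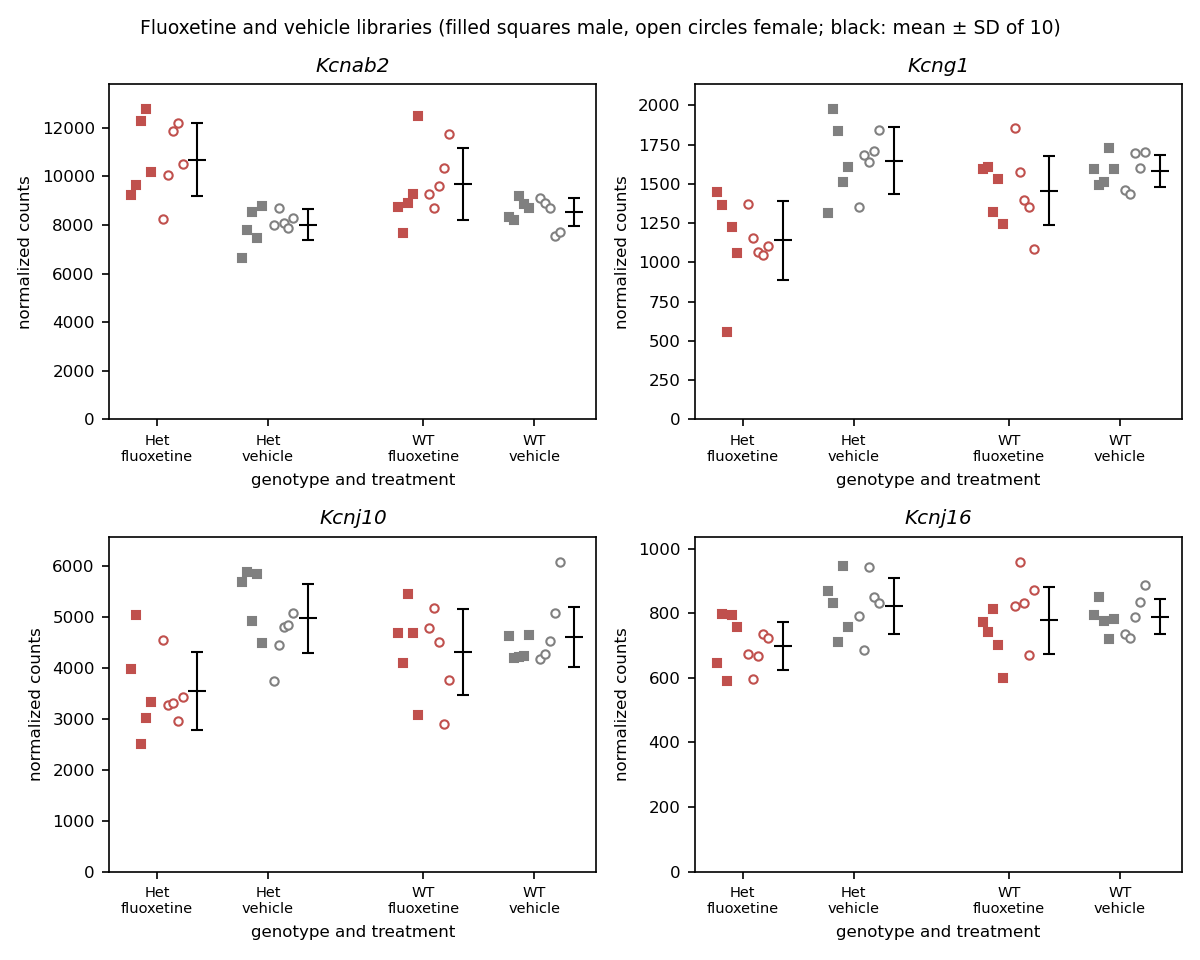
Kcnab2, Kcng1, Kcnj10 and Kcnj16 in normalized counts (y axis) in each fluoxetine and vehicle library by genotype, males as filled squares and females as open circles, with mean ± SD of 10 libraries in black. In Het mice the fluoxetine libraries sit above vehicle for Kcnab2 and below it for the other genes; in WT mice none of the 4 was called.

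The Het response was also read by sex. Of the 23 genes called over both sexes, 22 had the same sign in males and females, and Kcnip4 did not (0.35 in males and −0.01 in females). Those calls rest on the mean of the sexes, which favours equal signs, so this count does not compare the sexes. Within males 16 members were called beside 22.7% of all genes tested, and within females 11 beside 15.1%. Without the 16 olfactory-rich libraries the counts were 0 in males and 13 in females. The 16 included 2 of 5 fluoxetine and 3 of 5 vehicle males, and 3 of 5 fluoxetine and 2 of 5 vehicle females. When the groups compared were fitted alone the counts were 3 in males and 4 in females. Shares of all genes called are not given for these fits or for the left-out libraries that follow. The male count was 10 without Het fluoxetine male replicate 3 or Het vehicle male replicate 1. The female count was 4 without Het fluoxetine female replicate 5 or Het vehicle female replicate 3, 5 without Het vehicle female replicate 4, 6 without Het fluoxetine female replicate 2, 7 without Het vehicle female replicate 1 and 18 without Het vehicle female replicate 2. No member was called for a difference between the sexes in the fluoxetine response of Het mice (limma, 0 of 78, beside 0.0112% of all genes tested; edgeR also 0; 9 members at an unadjusted p under 0.05).

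Whether fluoxetine acted differently in the genotypes was tested as an interaction, over both sexes. No member was called (limma, 0 of 78, beside 1.7% of all genes tested, edgeR also 0). At an unadjusted p under 0.05 there were 21 members, and the share of all genes at that p is not given here. The members with the smallest p, named after their values were seen, were Kcnmb1 at −0.96 ± 0.30 (adjusted p = 0.0631, 95% interval −1.56 to −0.37), Kcnj12 at −0.34 ± 0.11 (0.0692), Kcna1 at 0.49 ± 0.17 (0.0910) and Kcng1 at −0.43 ± 0.15 (0.0912). Left-out single libraries gave 0 to 5 calls: 5 without Het fluoxetine male replicate 1, 4 without WT fluoxetine male replicate 5, 3 without Het vehicle female replicate 2 or WT fluoxetine female replicate 4, 2 without Het fluoxetine female replicate 1 and 1 without Het vehicle female replicate 5. For Kcnab2 the Het minus WT response was 0.24 (95% interval 0.04 to 0.43) and for Kcnj10 −0.39 (95% interval −0.68 to −0.11), and neither was called. Of the 23 genes called in Het mice, 17 had the same sign in WT mice, beside 49 of all 78 members. The genotypes shared no libraries but may share mothers. Kcnj2 was the 1 gene called in both, 4.35% of the Het list and 33.3% of the WT list.

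**Figure D4:**
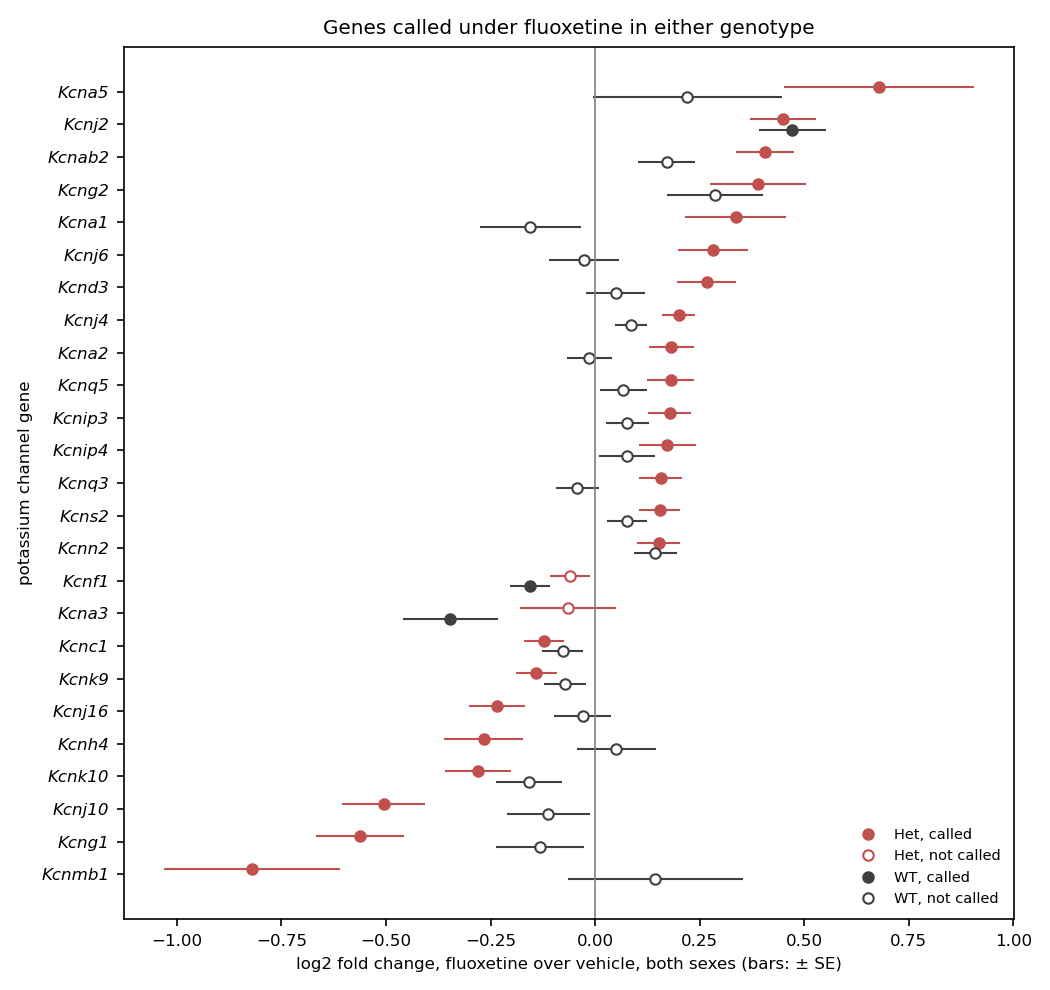
Log2 fold change of fluoxetine over vehicle ± SE (x axis) in Het (red, upper) and WT (dark, lower) mice for the members called in either genotype (y axis); filled points were called and open points were not. Kcnj2 was called in both, at 0.45 in Het and 0.47 in WT mice, and the interaction was called for none of them.

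Under fluoxetine itself 5 members differed between Het and WT mice, 6.41% of the members beside 7.33% of all genes tested, and those described here are named after their values were seen. The Elk-type pore Kcnh8 was higher at 1.07 ± 0.29 (adjusted p = 0.0189), over 10.4 to 33.0 (median 20.8) normalized counts in Het and 3.97 to 17.7 (median 7.76) in WT mice. The beta subunit Kcnab3 was higher at 0.42 ± 0.14 (0.0482), over 754 to 1725 (median 1230.3) in Het and 691 to 1177 (median 898) in WT mice. Kcng1 was lower at −0.38 ± 0.11 (0.0221) and Kcnmb1 at −0.72 ± 0.21 (0.0274). Kcng1 ranged over 554 to 1449 (median 1129.9) in Het and 1084 to 1858 (median 1462) in WT fluoxetine libraries, and the groups overlapped for all 4 genes described. The count was 0 without the 16 olfactory-rich libraries, 5 of which were Het fluoxetine and 0 WT fluoxetine, and 1 when the 4 fluoxetine groups were fitted alone. Leaving out 1 library gave 1 to 14 members: 14 without Het fluoxetine male replicate 1, 10 without WT fluoxetine female replicate 4, 9 without WT fluoxetine male replicate 5, 8 without Het fluoxetine male replicate 4, 3 without Het fluoxetine female replicate 3, the library labelled Het fluoxetine male replicate 5, WT fluoxetine male replicate 1 or WT fluoxetine male replicate 3, 2 without Het fluoxetine male replicate 3, and 1 without WT fluoxetine female replicate 1.

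Lithium raised 4 potassium channel genes in both genotypes. Kcnj4, Kcnip3, Kcnk3 and Kcnk1 were called higher in Het and in WT mice. Kcnj4 is a strong inward rectifier, Kcnip3 a calcium-binding protein that partners Shal channels and also represses transcription, and Kcnk3 and Kcnk1 are background channels of the TASK and TWIK groups. In Het mice 9 members rose and 4 fell, 16.7% of the members beside 9.14% of all genes tested (5.3% higher and 3.84% lower). In WT mice 5 rose and 1 fell, 7.69% beside 2.97% (1.9% higher and 1.07% lower). The medians of the members' log2 fold changes, 0.02 in Het and −0.00 in WT mice, stood beside −0.00 for all genes in each genotype. The 4 shared genes were 30.8% of the Het list and 66.7% of the WT list. The genotypes shared no libraries, though pups of both may share mothers. All 13 Het calls had the same sign in WT mice and all 6 WT calls the same sign in Het mice, beside 60 of all 78 members.

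Kcnj4 (chr15:79483714-79505241, minus strand) stood at 4045, 3875, 4158, 4213 and 3989.8 normalized counts in Het lithium males, against 2955, 3249.6, 3557, 3288 and 3391 in Het vehicle males. In Het females it stood at 4024, 4098, 4041, 3384 and 4012 with lithium, against 3234, 3636, 3213, 3422 and 3358 with vehicle. All Het lithium libraries but female replicate 4, at 3384, lay above every Het vehicle library of their sex. In WT mice Kcnj4 stood at 3920.1, 4026, 3952, 3994 and 3965 in lithium males, against 3710.3, 3374, 3762, 3633 and 3123 in vehicle males. In WT females it stood at 3845, 4129, 3667, 3767 and 3796 with lithium, against 3334, 3252, 3372, 3287 and 2912 with vehicle. Within each sex the WT groups did not overlap. The log2 fold change was 0.26 ± 0.04 in Het (adjusted p = 3.06e-05) and 0.21 ± 0.04 in WT mice (adjusted p = 0.00146), with 10 of 10 lithium libraries above the vehicle mean in each.

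Kcnip3 (chr2:127456498-127522094, minus strand) ranged over 3395 to 4655 (median 4126) with lithium and 2870.4 to 3872 (median 3366) with vehicle in Het mice. In WT mice it ranged over 3753 to 4586 (median 4365) with lithium and 3315 to 3895 (median 3539.8) with vehicle. The groups overlapped. All 10 lithium libraries of each genotype lay above the vehicle mean of log2 values, although the lowest Het lithium library, at 3395, lay just under the Het vehicle mean of normalized counts, 3405. The log2 fold changes were 0.26 ± 0.05 (9.88e-04) in Het and 0.26 ± 0.05 (0.00296) in WT mice. Kcnk3 (chr5:30588170-30625271, plus strand) ranged over 532 to 716 (median 652) with lithium and 499 to 630.3 (median 542) with vehicle in Het mice, a change of 0.20 ± 0.05 (0.00441). In WT mice Kcnk3 ranged over 558 to 725 (median 655) with lithium and 522 to 606 (median 556) with vehicle, a change of 0.21 ± 0.05 (0.00853). Kcnk1 (chr8:125995170-126030685, plus strand) rose by 0.18 ± 0.05 (0.0104) in Het and 0.17 ± 0.05 (0.0266) in WT mice. It ranged over 2425 to 3068 (median 2889) with lithium and 2054 to 2886 (median 2519.8) with vehicle in Het mice, and over 2584 to 3047 (median 2877) with lithium and 2451 to 2630.4 (median 2515) with vehicle in WT mice. The groups overlapped for Kcnk3 and Kcnk1 in each genotype. Kcnj4, Kcnip3 and Kcnk3 kept their calls under all 9 alternative settings and without any 1 of the 20 libraries in both genotypes. Without the 16 olfactory-rich libraries Kcnk1 had an adjusted p of 0.152 in Het and 0.0526 in WT mice, with marker scores as terms it had 0.0683 in Het mice, and its WT call was lost without WT lithium female replicate 1, 2 or 5, WT lithium male replicate 3 or 4, or WT vehicle male replicate 5. Of the exon bases of Kcnk1 8.01%, and of Kcnk3 5.76%, also belong to an annotated gene on the opposite strand, and whether reads were counted by strand is not given in the sources used here. Pvalb, the marker of fast-spiking interneurons, was the 1 of 8 inhibitory neuron markers that rose with lithium in WT mice, at 0.54 ± 0.12 (0.00884), and the other cell type lists held no call there. In Het mice endothelial markers were lower in 2 of 8, microglial markers in 1 of 8 and astrocyte markers in 1 of 9. The part of these markers in the rises was not tested.

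**Figure D5:**
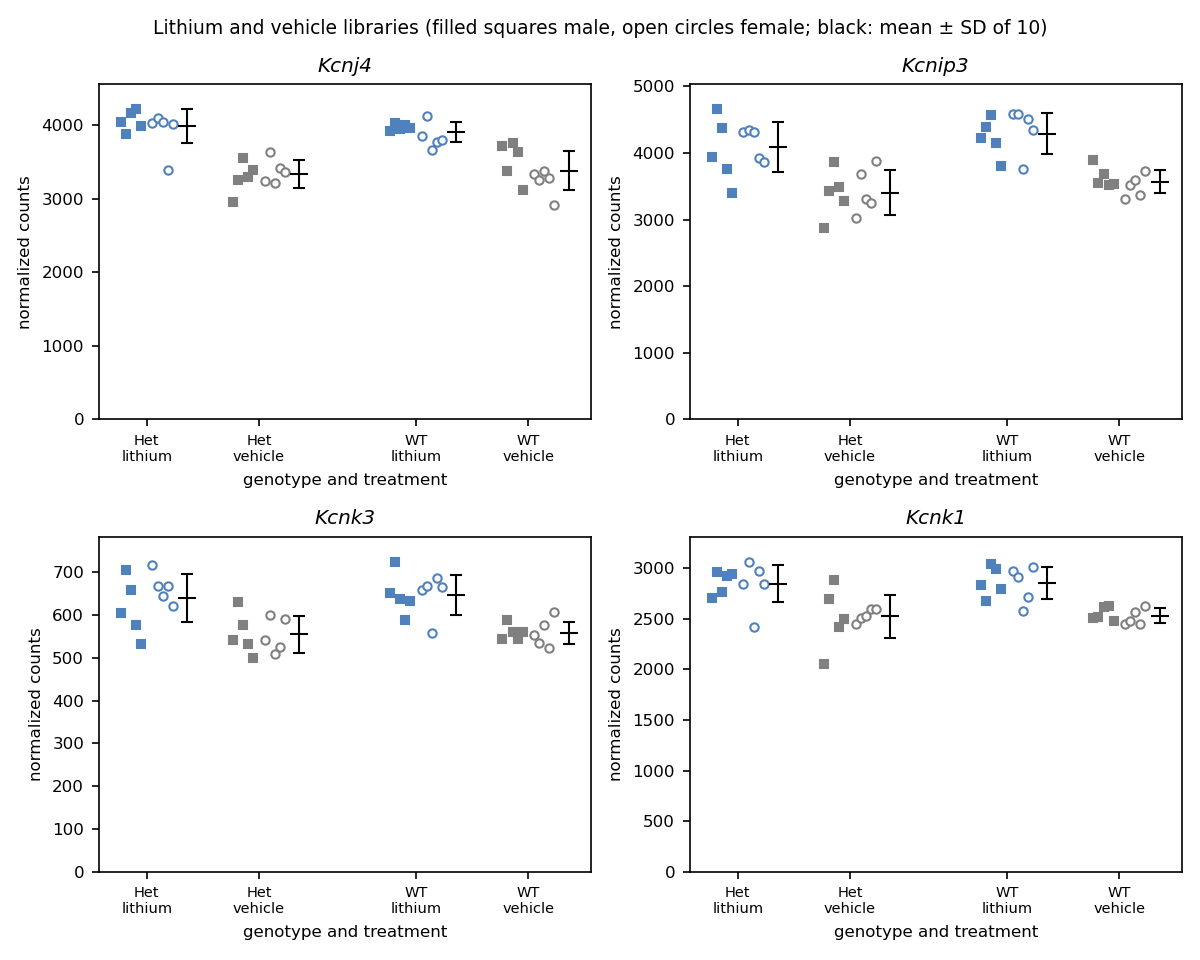
Kcnj4, Kcnip3, Kcnk3 and Kcnk1 in normalized counts (y axis) in each lithium and vehicle library by genotype, males as filled squares and females as open circles, with mean ± SD of 10 libraries in black. Lithium means lie above vehicle means in both genotypes for all 4 genes, by 0.17 to 0.26 on the log2 scale.

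The lithium responses of the 4 genes were close in the genotypes, within the intervals that follow. These genes were picked for a call in both genotypes, which favours close responses, so the differences do not compare the genotypes. The Het minus WT difference in response was 0.04 (95% interval −0.07 to 0.16) for Kcnj4, 0.00 (−0.15 to 0.15) for Kcnip3, −0.01 (−0.14 to 0.13) for Kcnk3 and 0.00 (−0.12 to 0.13) for Kcnk1. No member was called for this interaction (limma, 0 of 78, beside 0% of all genes tested; edgeR also 0; 0 at an unadjusted p under 0.05), nor for Het against WT under lithium (0 of 78, beside 0.0393%; edgeR also 0; 1 at an unadjusted p under 0.05). In single sexes of 5 against 5 libraries Kcnj4 and Kcnk10 were called in Het males (2 of 78, beside 2% of all genes tested) and Kcnk3 in Het females (1 of 78, beside 0.629%). In WT females Kcnj4 was called (1 of 78, beside 0.118%; edgeR 0) and in WT males no member was (0 of 78, beside 0.0786%; edgeR 0; 12 at an unadjusted p under 0.05). The Het male count was 6 without Het vehicle male replicate 3, and 1 without Het lithium male replicate 4, Het vehicle male replicate 1 or Het vehicle male replicate 4. The Het female count was 3 without Het lithium female replicate 4 or Het vehicle female replicate 2, 2 without Het lithium female replicate 5 or Het vehicle female replicate 5, and 0 without any 1 of the other 6 libraries. The WT female count was 2 without WT lithium female replicate 3, 1 without WT vehicle female replicate 3 and 0 without any 1 of the other 8. For Kcnj4 the change was 0.30 in Het males, 0.21 in Het females, 0.18 in WT males and 0.25 in WT females.

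Because these 4 genes moved together under lithium and Kcnj2 moved under fluoxetine, the bases before their RefSeq starts were read on GRCm38.p6. Shown are 180 bases, 5′ to 3′ on the gene's strand and ending at the base before the start, with capitals marking a match to 1 of 5 motifs of activity-regulated or steroid-regulated factors.
Kcnj4 (chr15:79505242-79505421, minus strand): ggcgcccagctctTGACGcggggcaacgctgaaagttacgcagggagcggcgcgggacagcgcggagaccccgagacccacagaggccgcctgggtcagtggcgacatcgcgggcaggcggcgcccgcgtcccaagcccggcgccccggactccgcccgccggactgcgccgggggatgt
Kcnip3 (chr2:127522095-127522274, minus strand, the farthest upstream of 3 starts): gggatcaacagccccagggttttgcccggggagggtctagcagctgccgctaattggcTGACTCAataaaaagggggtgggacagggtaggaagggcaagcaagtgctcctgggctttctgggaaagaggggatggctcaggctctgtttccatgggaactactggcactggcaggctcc
Kcnk1 (chr8:125994922-125995101, plus strand): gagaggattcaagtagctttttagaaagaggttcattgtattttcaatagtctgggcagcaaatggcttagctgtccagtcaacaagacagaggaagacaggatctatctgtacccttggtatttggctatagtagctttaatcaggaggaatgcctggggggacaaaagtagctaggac
Kcnj2 (chr11:111065984-111066163, plus strand): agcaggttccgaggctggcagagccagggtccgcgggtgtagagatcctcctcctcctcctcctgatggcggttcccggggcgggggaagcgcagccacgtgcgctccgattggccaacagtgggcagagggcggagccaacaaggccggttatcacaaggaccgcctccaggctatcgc

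The table had no entry for Kcnk3. Kcnj4 held the cyclic AMP response element core TGACG 167 bases before its start, and Kcnip3 held the AP-1 site TGACTCA 122 bases before this start and no match at its other starts. Kcnk1 and Kcnj2 held none of the 5 motifs. In windows of 250 bases before the start, on both strands, the full element TGACGTCA was in 0 of the 79 windows of 56 members and in 1.55% of 32851 windows of all genes, and the core TGACG, which the full element contains, was in 12.7% of member windows and 17.8% of all. TGANTCA (AP-1) was in 3.80% of member windows and 6.75% of all, GCGNGGGCG (the EGR site) in 3.80% and 4.70%, and the glucocorticoid response element in 1.27% and 0.387%. A match describes letters only.

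Beyond the shared genes, further members were called under lithium in Het mice. Each had the same sign in WT mice, without a call there, and none was called for the interaction. Of the calcium- and sodium-activated pores 3 of 7 rose, beside 5.3% of all genes tested: Kcnn2 at 0.19 ± 0.05 (adjusted p = 0.0175) and Kcnn1 at 0.17 ± 0.06 (0.0472), which carry calcium-activated afterhyperpolarizations, and the sodium-activated Kcnt1 at 0.13 ± 0.04 (0.0305). The Shaw pore Kcnc4 rose by 0.20 ± 0.06 (0.0205). The falls were Kcnk10 at −0.34 ± 0.08 (0.00421), Kcnb2 at −0.38 ± 0.10 (0.0153), the silent Kcnv1 at −0.28 ± 0.09 (0.0307) and the A-type Shaker gene Kcna4 at −0.29 ± 0.10 (0.0428). Kcnk10 ranged over 186 to 338 (median 242) with lithium and 266 to 388 (median 305) with vehicle, with 9 of 10 lithium libraries below the vehicle mean. Kcnb2 ranged over 852 to 1344 (median 962) with lithium and 818 to 1941 (median 1342) with vehicle, so the lithium libraries lay inside the vehicle range. The count of 13 became 7 with marker scores as terms, 8 without the 16 olfactory-rich libraries, 7 without Het vehicle female replicate 3 and 8 without Het lithium female replicate 5 or Het vehicle male replicate 1. The Kcnn2 call was lost without Het vehicle female replicate 3, the Kcnb2 call without Het vehicle male replicate 1 and the Kcnc4 call without Het lithium male replicate 3 or Het vehicle male replicate 1, and those of Kcnt1, Kcnv1, Kcna4 and Kcnn1 on leaving out any 1 of 6, 7, 11 and 13 libraries in that order. Of these 8 genes only Kcnv1 kept its call without the olfactory-rich libraries, and the olfactory bulb markers, with 1 of 12 lower (Reln) and a median of −0.60, summed to 12873 to 24784 in Het lithium and 12883 to 57154 in Het vehicle libraries. Of 8 inhibitory neuron markers 2 rose, Pvalb at 0.74 ± 0.12 (9.32e-05) and Lhx6 at 0.33 ± 0.09 (0.0198), the list summing to 18658 to 29031 in lithium and 18869.7 to 33633 in vehicle libraries, and its part in the channel results was not tested.

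In WT mice the other lithium calls were a rise of Kcnj12 at 0.27 ± 0.08 (adjusted p = 0.0432) and a fall of Kcnq3 at −0.18 ± 0.05 (0.0375). Kcnq3 ranged over 6187 to 8279 (median 7538) with lithium and 7834 to 8919 (median 8422) with vehicle, and Kcnj12 over 350.2 to 458 (median 408) with lithium and 282 to 410 (median 331) with vehicle. The groups overlapped for both, with 10 of 10 lithium libraries on the side of the change. Kcnj12 and Kcnq3 were also the members with the smallest p between Het and WT vehicle mice, a comparison that uses the same WT vehicle libraries. Neither call held without the 16 olfactory-rich libraries, and the Kcnj12 call was lost on leaving out any 1 of 14 libraries and the Kcnq3 call any 1 of 10. The count of 6 became 3 without WT lithium female replicate 2, WT lithium male replicate 3, WT lithium male replicate 4 or WT vehicle male replicate 5, and 13 with marker scores as terms.

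Some genes were called under both drugs in Het mice, in comparisons that share the vehicle libraries, so values are given side by side. Kcnj4 averaged 3832 ± 316 with fluoxetine, 3984 ± 230 with lithium and 3330.4 ± 191 with vehicle (SD, n = 10 each). Kcnip3 averaged 3845 ± 267 with fluoxetine, 4087 ± 374 with lithium and 3405 ± 333 with vehicle. Kcnk10 averaged 255 ± 33.4 with fluoxetine, 245 ± 42.5 with lithium and 308 ± 32.7 with vehicle. Kcnj4 and Kcnip3 were thus above vehicle and Kcnk10 below it with either drug. Kcnn2 was also called under both, with log2 fold changes of 0.15 ± 0.05 for fluoxetine and 0.19 ± 0.05 for lithium. In WT mice the same genes under fluoxetine were at 0.09 ± 0.04 for Kcnj4, 0.08 ± 0.05 for Kcnip3, −0.16 ± 0.08 for Kcnk10 and 0.14 ± 0.05 for Kcnn2, and none was called.

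Proteins that assemble with potassium channels but carry other symbols, and other ion channels, were read as lists of their own. Under fluoxetine in Het mice 6 of 18 partner genes rose and 1 fell, beside 16.9% of all genes tested that rose and 16% that fell, and the sodium and calcium channel counts that follow stand beside the same shares. Those with the smallest p were Cntnap2, which clusters Shaker channels beside the node of Ranvier, at 0.20 ± 0.04 (limma, adjusted p = 7.58e-05), the Shal partner Dpp10 at 0.15 ± 0.04 (6.80e-04), and Kcne4, an accessory subunit, lower at −0.55 ± 0.13 (0.00129). For Cntnap2 the Het minus WT response was 0.23 ± 0.06 and was called (0.0275). Of 13 voltage-gated sodium channel genes 4 rose, led by the beta subunit Scn3b at 0.22 ± 0.04 (2.78e-05), Scn10a at 2.03 ± 0.45 (4.48e-04) and the axonal pore Scn2a at 0.21 ± 0.06 (0.00307). Scn10a, a channel of sensory neurons, was scarce, at 5.76 to 274 normalized counts with fluoxetine and 1.12 to 11.4 with vehicle. Of 18 voltage-gated calcium channel genes 2 rose and 3 fell, with the T-type pore Cacna1g at −0.32 ± 0.05 (9.75e-06), the P/Q-type pore Cacna1a at −0.21 ± 0.04 (3.02e-04) and the beta subunit Cacnb2 at 0.19 ± 0.04 (4.91e-04). Of the HCN channel genes, which carry the hyperpolarization-activated current, Hcn3 fell at −0.28 ± 0.06 (2.04e-04). Under lithium in Het mice the partner Lgi1, a secreted protein that modulates Shaker channels, rose at 0.14 ± 0.05 (0.0377), and of the 18 calcium channel genes 2 rose and 2 fell, beside 5.3% and 3.84% of all genes tested, among them the L-type pore Cacna1d at −0.23 ± 0.07 (0.0267), the T-type Cacna1h at 0.26 ± 0.08 (0.0319) and the subunit Cacnb1 at 0.16 ± 0.05 (0.0325). In WT mice none of these 4 lists held a called gene under either drug, beside 8.2% of all genes tested under fluoxetine and 2.97% under lithium. At an unadjusted p under 0.05 fluoxetine had 4 of 18 partners, 2 of 13 sodium, 3 of 18 calcium and 0 of 4 HCN genes. Lithium had 5 partners, 2 sodium, 6 calcium and 1 HCN gene.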

How the data were processed

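Per the labels' protocols, libraries were made with the TruSeq Stranded mRNA kit. Per the submitters' processing notes, reads were quantified with Salmon 0.11.2 and handled with DESeq2 1.19.11 in R 3.6.0, with GRCm38 named as the build; whether counting used strand is not given in the sources used here. The deposited table holds a normalized signal, which the values show to be whole reads divided by 1 factor per library (100.0% of values within 0.001 of a whole read), called normalized counts here. Symbols, positions and exon lengths came from the GENCODE annotation for 18077 genes, and promoters from RefSeq on GRCm38.p6. Of 78 members, 27 share exon bases with another annotated gene.

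From these values log2(value + 1) was tested with limma 3.58.1 (R 4.3.3) on 12 group means (48 residual degrees of freedom), two-sided, over the 17807 genes that reached 10 normalized counts in 5 or more libraries. Benjamini-Hochberg adjusted p under 0.05 was called. Counts at an unadjusted p under 0.05 are given without the share of all genes. Fold changes are on the log2(value + 1) scale and understate those of low genes. Both-sex contrasts weight the sexes equally. edgeR 4.0.16 on the recovered reads was an alternative. The fit was also run on simulated independent counts with the same dispersion for all genes. These held no differences in dissection or litter, so that run cannot speak to such differences. Members and lists were chosen with earlier results of these data known; results of some further genes, among them some that the naming rule would take, are not reported here. Named were Chd8, up to 12 called members with the smallest p per direction in each of 5 both-sex comparisons (the 3 smallest p where fewer than 3 were called), up to 6 per interaction, the highest member per symbol prefix, and up to 3 called genes per related list. Replicates of a group differed by 4.12 to 69.97 times the counting noise (chi-square per degree of freedom, 120 pairs), so none was counted as a duplicate.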

Additional observations from a re-analysis of the deposited data

Results flagged for a closer look

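Of 144 groups of 5 libraries screened over the featured genes, 12 held a library whose gap to its nearest neighbour was over 0.71 of the group's range, and chance alone gives about 1 in 20. Kcnj4 had 4 of them: 4328 normalized counts in Het fluoxetine female replicate 2, above the other libraries of its group at 3522 to 3698, 3384 in Het lithium female replicate 4, below others at 4012 to 4098, 3179 in WT fluoxetine male replicate 1, below others at 3542 to 3689.5, and 2912 in WT vehicle female replicate 5, below others at 3252 to 3372. Kcnj2 stood at 572 in Het vehicle female replicate 2, above others at 489 to 509. Kcnip3 stood at 4053 in WT fluoxetine male replicate 4, above others at 3611 to 3679.8. Kcnk3 stood at 558 in WT lithium female replicate 3, below others at 658 to 687, and Kcnab2 in the same library at 6888, below others at 8058 to 8399. Kcnn2 stood at 1234 in Het lithium male replicate 4, above others at 1013 to 1069, at 1022 in WT fluoxetine male replicate 5, below others at 1098 to 1114, and at 1111 in WT lithium female replicate 2, above others at 945 to 993. Kcnq3 stood at 9608.5 in WT fluoxetine female replicate 4, above others at 7507 to 8055. Over both sexes the fluoxetine calls of Kcnj2 and the lithium calls of Kcnj4, Kcnip3 and Kcnk3 held in each genotype without any 1 of the libraries compared, while in WT females the lithium call of Kcnj4 was lost without WT vehicle female replicate 5 and the fluoxetine call of Kcnj2 without it or WT fluoxetine female replicate 4.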

How the results depend on the processing

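Of 42 named calls, 16 held under all 9 alternatives and every left-out library, and no direction was reversed. Leaving out the 16 olfactory-rich libraries ended 22 calls, marker scores as terms 11 and fitting only the groups compared 7. The 16 included 3 of 5 Het fluoxetine females, 2 of 5 Het fluoxetine males, 2 of 5 Het vehicle females and 3 of 5 Het vehicle males. The part of fewer libraries in the lost calls was not tested. Without the 16 libraries the numbers of members called were 1 (fluoxetine, WT), 3 (lithium, WT), 8 (lithium, Het), 0 (Het against WT under fluoxetine), and in single sexes 2 (fluoxetine, WT males), 0 (fluoxetine, WT females), 0 (fluoxetine, Het males), 0 (lithium, Het males), 10 (lithium, Het females) and 0 (lithium, WT females). With marker scores they were 13 (lithium, WT), 7 (lithium, Het), 3 (Het against WT under fluoxetine), 0 (fluoxetine, WT females), 7 (fluoxetine, Het females) and 4 (lithium, WT females), and 3 for lithium in Het males. With only the groups compared they were 7 (fluoxetine, WT), 14 (lithium, WT), 14 (fluoxetine, Het), 1 (Het against WT under fluoxetine), 2 (fluoxetine, WT males), 3 (fluoxetine, Het males), 4 (fluoxetine, Het females), 1 (lithium, Het males) and 0 (lithium, Het females). Quantile normalization and rescaling each gave 2 for lithium in Het females and 2 in WT females, and edgeR 2 in Het females and 0 in WT females. The cause was not tested. Shares of all genes called are not given for these settings or for left-out libraries. Changes in the members therefore cannot be told apart from changes over all genes. Leaving out 1 library gave 1 to 4 members (fluoxetine, WT), 3 to 7 (lithium, WT), 17 to 27 (fluoxetine, Het), 7 to 16 (lithium, Het), 1 to 14 (Het against WT under fluoxetine), 0 to 5 (genotype by fluoxetine), 10 to 19 and 4 to 18 (fluoxetine, Het males and females), 1 to 6 and 0 to 3 (lithium, Het males and females), 0 to 2 (lithium, WT females), and 0 to 1 (fluoxetine, WT females). 

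Replicate numbers did not pair the libraries: same-numbered libraries correlated at −0.28 to 0.29 in their deviations (330 pairs, mean 0.00246). The replicate block gave 2 members for lithium in Het females and 2 in WT females, and ended the calls of Kcna3 (fluoxetine, WT) and Kcnn1 (lithium, Het). Depth limited genes such as Kcnj15, Kcnn4, Kcnj5 and Kcnk15, which had libraries at 0.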
